A study of Mus musculus with 28 samples.

Results

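Arc encodes a synaptic protein whose transcription in neurons follows synaptic activity, and the subject here is the set of prefrontal libraries in which its transcript was most and least abundant. The 28 libraries were ranked by Arc CPM (counts per 1000000 counts of the library, from its raw total), and the 9 highest and 9 lowest were selected on that value, leaving 10 in the middle. Each library is the ventromedial prefrontal cortex, a frontal region involved in emotional control, of 1 female mouse. The mice had received virus in this region and were in 4 groups of 7: LacZ control virus without stress, LacZ with stress, virus labelled Slit1 KD (knockdown) without stress, and Slit1 KD with stress. Stress lasted 3 days, by a procedure abbreviated sCVS in the labels. The kind of knockdown construct, the cells it entered and the ages of the mice were not given in the sources used here.

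Neuronal firing opens calcium channels and receptors, and kinases activated by calcium act on transcription factors already present in the nucleus, among them CREB, SRF and MEF2. A first wave of genes is then transcribed without new protein, including transcription factors such as Fos, Egr1 and Npas4 and signalling regulators such as Dusp1. A later wave codes for secreted and synaptic proteins such as BDNF and Homer1. In the cortex these transcripts mark recent activity in excitatory neurons above all.

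The genes described follow these roles, in 3 lists of activity-dependent genes with 61 tested members and 3 related lists. Arc itself was left out of every count. Promoter sequences of RefSeq (GRCm38.p6) were matched for 49 of the 61 members, as the 250 bases before the start of transcription. The cyclic AMP response element, bound by CREB, has the palindromic core TGACGTCA. It overlaps the shorter motif TGACG, read as CGTCA on the other strand, because it holds both. At least 1 of the shorter motifs lay in the promoters of 30 of the 49 members (61.2%) and of 19.8% of all 27025 genes with a promoter of this length. The full element lay in 7 of 49 (14.3%) and in 1.77% of all genes, and the CArG box, bound by SRF, in 3 of 49 (6.12%) and 1.62%. The promoters below belong first to 4 members whose transcripts tracked Arc after the regression on library GC described later. Under the other GC correction Dusp1 did not track it (rho = -0.02). The last promoter is that of Ppp1r15a, the member farthest apart between the sets. Homer1 has 2 listed promoters, of which the first is shown. Capitals mark TGACG and CGTCA, and a match is a description of letters, not a bound site.
Dusp1, chr17:26508473-26508722, minus strand: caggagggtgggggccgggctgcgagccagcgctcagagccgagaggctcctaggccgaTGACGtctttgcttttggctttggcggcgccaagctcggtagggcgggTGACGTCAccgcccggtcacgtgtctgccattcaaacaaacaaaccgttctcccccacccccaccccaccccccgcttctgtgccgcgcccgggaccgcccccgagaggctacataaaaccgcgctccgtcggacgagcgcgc
Homer1, chr13:93303507-93303756, plus strand: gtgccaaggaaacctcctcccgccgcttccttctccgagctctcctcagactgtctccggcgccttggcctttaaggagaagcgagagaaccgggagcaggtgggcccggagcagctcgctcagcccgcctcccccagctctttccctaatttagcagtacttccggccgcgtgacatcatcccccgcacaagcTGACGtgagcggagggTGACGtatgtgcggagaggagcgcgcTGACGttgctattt
Nr4a1, chr15:101266596-101266845, plus strand: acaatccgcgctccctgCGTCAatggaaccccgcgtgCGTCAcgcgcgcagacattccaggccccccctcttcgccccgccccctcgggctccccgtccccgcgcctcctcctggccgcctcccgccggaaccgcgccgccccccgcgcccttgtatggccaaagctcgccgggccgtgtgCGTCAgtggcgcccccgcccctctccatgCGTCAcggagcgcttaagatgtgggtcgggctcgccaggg
Fos, chr12:85473640-85473889, plus strand: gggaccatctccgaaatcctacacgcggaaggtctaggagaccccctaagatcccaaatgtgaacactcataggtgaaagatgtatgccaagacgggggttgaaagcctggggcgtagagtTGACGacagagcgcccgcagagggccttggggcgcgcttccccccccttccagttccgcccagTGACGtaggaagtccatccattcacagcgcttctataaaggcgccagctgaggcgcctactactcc
Ppp1r15a, chr7:45526269-45526518, minus strand: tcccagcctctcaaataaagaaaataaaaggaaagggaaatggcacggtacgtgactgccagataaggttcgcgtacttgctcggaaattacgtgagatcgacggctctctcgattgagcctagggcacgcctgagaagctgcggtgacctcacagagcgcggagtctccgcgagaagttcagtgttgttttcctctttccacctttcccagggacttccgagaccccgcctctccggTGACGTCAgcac
The full element was in the Dusp1 and Ppp1r15a promoters, and the shorter motif matched 3 times in Dusp1, 3 in Homer1, 4 in Nr4a1, 2 in Fos and 2 in Ppp1r15a. Not all members that tracked Arc after that regression held the shorter motif: Dusp6, Ier5 and the second Homer1 promoter had 0 matches. Under the other GC correction Dusp6 and Ier5 did not track Arc (rho = -0.04 and -0.33). Of the members with r of at least 0.5 after the regression on library GC, 13 of 19 with a matched promoter held the shorter motif (68.4%). That is close to the 30 of 49 of all matched members (61.2%). A gene with several promoters was counted if any of them held the motif. The 27025 genes were not limited to those tested.

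Arc spanned a 47.3-fold range of CPM. In the high set its level ran from 12.6 to 59.4 CPM with a median of 29.7, on 483 to 2449 counts, and in the low set from 1.26 to 3.46 CPM with a median of 2.75, on 40 to 140 counts. The nearest libraries outside the sets had 12.2 and 4.94 CPM. The study's groups were spread evenly: each set held 3 LacZ stressed libraries and 2 of each other group. Libraries labelled knockdown made up 4 of 9 in both sets and stressed ones 5 of 9 in both (Fisher's exact test, two-sided, p = 1 for each label).

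The sets also differed in the composition of the libraries. Each library was given a GC slope, the change in log2 CPM relative to the mean of all libraries per 10 percentage points of transcript GC content, over 14735 genes. It ran from 0.46 to 1.24 in the high set, from -0.60 to 0.62 in the middle and from -1.24 to -0.29 in the low set, so the 2 sets did not overlap. Over the 28 libraries it moved with Arc, whose longest transcript has 59% GC (chr15:74669083-74672570), with r = 0.89 (Pearson) and rho = 0.87 (Spearman), and leaving out the 2 libraries of most extreme slope gave r = 0.87. The share of mitochondrial counts was 3.08% to 5.79% in the high and 5.09% to 14.2% in the low set, and total counts were 38.5 to 41.9 M and 30.6 to 41.4 M. Libraries of the high set had median place 2 in the accession order of their group and those of the low set median place 6, and no label calls this place a batch. Slit1, the targeted gene, was not lower under the knockdown label (log2 fold change -0.02 ± 0.30 SE, adjusted p = 1 by edgeR), so that label rests on the labels alone. Its level was 24.0 to 56.3 CPM in the high and 7.48 to 17.1 CPM in the low Arc set. GC slope, accession place and mitochondrial share cannot be told apart from Arc between the sets, and all these differences are given without a test.

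**Figure D1:**
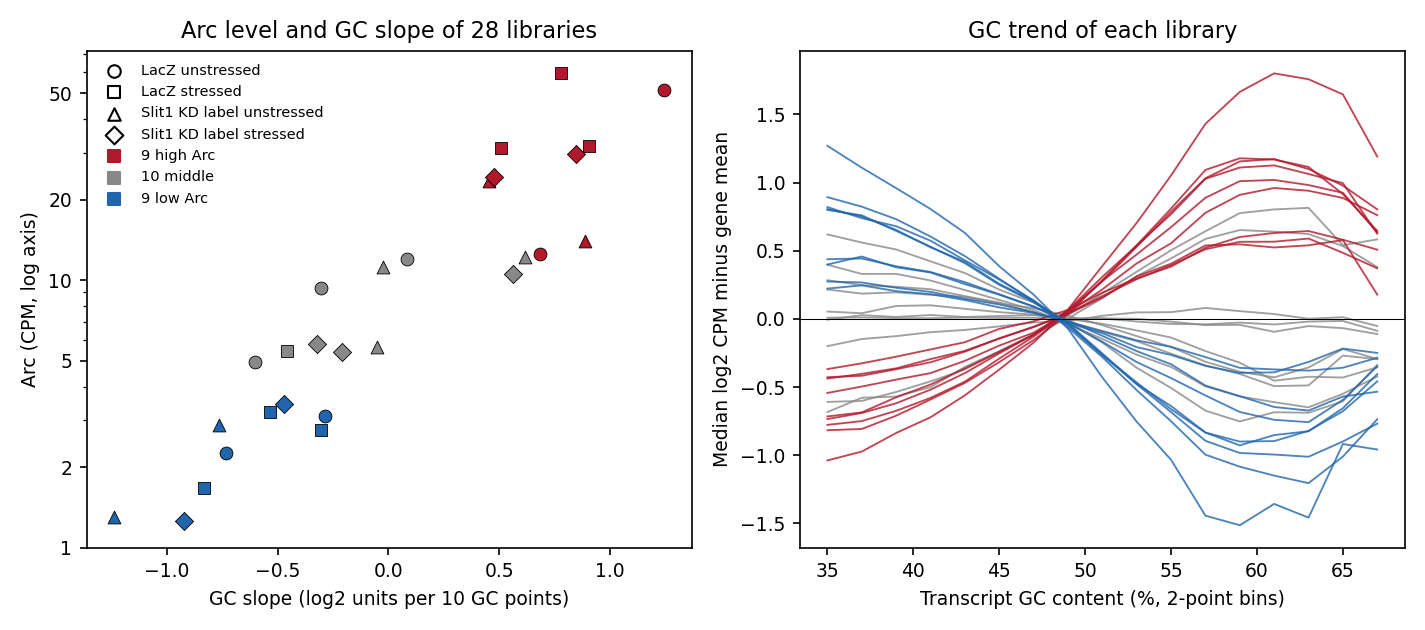
Left, Arc (CPM, log axis) against the GC slope of each of 28 libraries, with marker shape for the study's group and colour for the Arc set. Right, the median log2 CPM of genes in 2-point bins of GC content relative to the gene means, 1 line per library. High Arc libraries have slopes of 0.46 to 1.24 and low Arc libraries -1.24 to -0.29.

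Between the sets, the markers most used beside Arc did not follow it. From here on levels are CPM of the library size scaled by TMM, a factor that balances most genes between libraries, and differences are of mean log2 CPM, high minus low, with the pooled SD of 9 and 9 libraries. Fos, a subunit of the AP-1 transcription factor (chr12:85473890-85477273), had 6.01 to 17.5 CPM (median 9.61) in the high and 7.00 to 22.1 CPM (median 11.6) in the low set. The ranges overlapped almost fully, and the difference was -0.28 ± 0.50. Egr1, a zinc finger transcription factor, had 16.8 to 42.2 CPM (median 26.2) in the high and 15.2 to 38.3 CPM (median 26.7) in the low set, a difference of 0.14 ± 0.43. Neither marker separated libraries of high from libraries of low Arc.

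Several other rapid transcription factors did separate the sets. Npas4, a factor induced by calcium entry in neurons (chr19:4984355-4989971), had 1.47 to 11.6 CPM (median 4.08) in the high and 0.26 to 1.06 CPM (median 0.54) in the low set, a difference of 3.08 ± 0.80. Per1, a clock gene that also responds to CREB (chr11:69095217-69109960), had 9.95 to 29.5 CPM (median 14.1) against 1.00 to 2.87 CPM (median 2.35), a difference of 2.83 ± 0.48. Fosb, another AP-1 subunit, had 1.25 to 3.89 CPM (median 1.997) against 0.32 to 0.88 CPM (median 0.61), a difference of 1.86 ± 0.47. Every high Arc library stood above every low Arc library for these 3 genes and for the antiproliferative regulator Btg2 (0.89 ± 0.32). Of the 23 tested members of this list, these 4 were higher with ranges apart and 0 were lower. Over all 19170 genes tested, 22.2% were higher with ranges apart and 15% lower, so a count of 4 of 23 is close to the background. The list's median difference was 0.14, against 0.04 over all genes. Of all genes 51.3% were above 0, and 68.6% were without the TMM factor, where the median of all genes was 0.49 and that of this list 0.61.

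Among the rest of this list, Junb (1.45 ± 0.68) and Nr4a1, an orphan nuclear receptor (1.44 ± 0.52), were higher with overlapping ranges. Nr4a1 had 10.2 to 37.1 CPM (median 16.7) in the high and 4.74 to 12.01 CPM (median 6.04) in the low set. Lower values were seen for Cebpb (-1.98 ± 0.77), Nr4a2 (-1.03 ± 0.50), Ier5 (-0.78 ± 0.46) and the growth response factor Egr3 (-0.74 ± 0.57), all with overlapping ranges. Of the Cebpb span, 60.4% overlaps other genes, and fragments there were counted for neither gene. Csrnp1 was not tested because its whole span lies inside another gene. Egr4 (0.14 ± 0.44) and Klf2 (-0.24 ± 0.46) differed by less than their spread. Genes of the same class thus stood on both sides of 0.

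The rapid signalling regulators gave a similar mixture. Ppp1r15a, which recruits a phosphatase to the translation factor eIF2 alpha (chr7:45522916-45526268, 21.4% of its span in overlap with other genes), had 3.51 to 6.98 CPM (median 5.42) in the high and 0.05 to 1.61 CPM (median 0.48) in the low set. Its difference, 3.53 ± 0.89, was the largest of the 61 activity-dependent genes, with no overlap of the sets. The kinase gene Plk3 (2.74 ± 0.75) and the stress sensors Gadd45g (2.40 ± 0.80) and Gadd45b (1.44 ± 0.42) were also higher with ranges apart, and Rheb, the small GTPase that activates mTOR, was lower (-0.75 ± 0.20). The lowest levels in the low set were 0.05 CPM for Ppp1r15a, 0.11 for Plk3 and 0.10 for Gadd45g. These lie near the floor, so the sizes of these 3 differences are uncertain. In all, 4 of 20 tested members were higher and 1 lower with ranges apart, again near the background, and the median difference was 0.33. Dusp1, a phosphatase that inactivates MAP kinases (chr17:26505590-26508519), had 6.86 to 18.9 CPM (median 12.6) against 6.36 to 13.9 CPM (median 8.96), a difference of 0.45 ± 0.43. Pim1 (-0.29 ± 1.08), Sik1 (-0.04 ± 0.30) and Dusp4 (0.08 ± 0.27), all genes of signalling enzymes, differed by less than their spread.

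Delayed effectors split by the same measure. Homer1, which encodes a scaffold of metabotropic glutamate receptors (chr13:93299635-93405129), had 223 to 543 CPM (median 325.0) in the high and 397 to 1137 CPM (median 727) in the low set, a difference of -0.98 ± 0.49. Its counts cover the whole gene and do not separate the activity-induced short form. Bdnf, the neurotrophin gene (chr2:109674700-109727007), had 29.5 to 67.0 CPM (median 33.5) against 27.7 to 119 CPM (median 61.9), a difference of -0.66 ± 0.55. Nptx2, which encodes a secreted pentraxin that clusters AMPA receptors, had 9.88 to 25.5 CPM (median 15.7) against 3.37 to 8.06 CPM (median 4.95), a difference of 1.56 ± 0.52 with ranges apart. The receptor scaffold Grasp (2.45 ± 0.51), the kinase Camk1g (1.61 ± 0.32), the neuropeptide precursor Vgf (1.51 ± 0.38) and the protease Plat (0.75 ± 0.18) were likewise higher in every high library, which makes 5 of 18 members, close to the 22.2% of all genes. The list's median was 0.01. Pcdh8 (-1.08 ± 0.52), a protocadherin gene with 31% of its span in overlap, the receptor gene Gpr3 (-0.07 ± 0.48) and Nrn1 (0.73 ± 0.53), a gene for a surface protein that promotes neurites, overlapped between the sets.

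**Figure D2:**
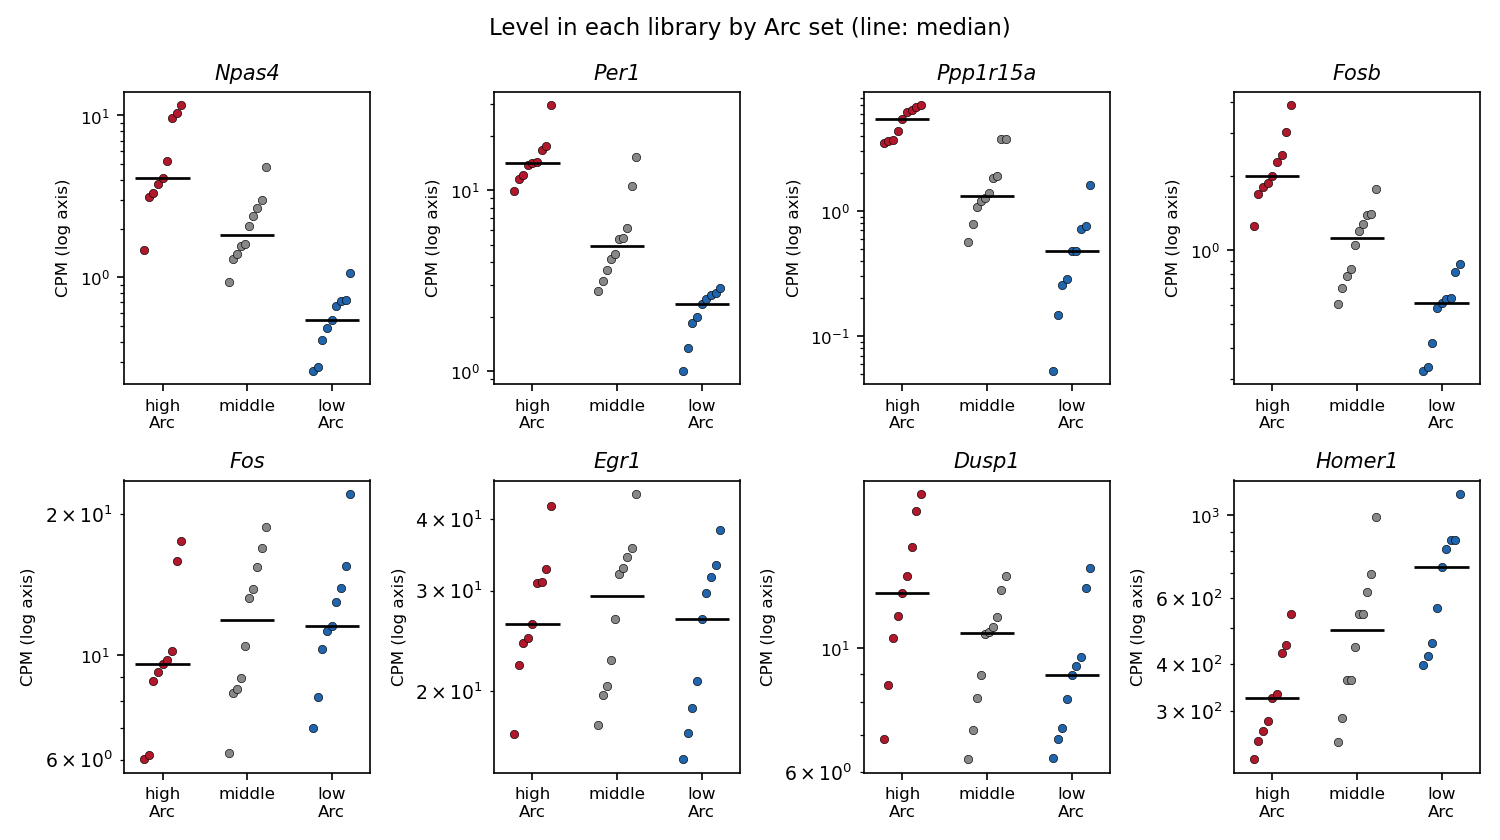
Level of 8 activity-dependent genes in each library (CPM, log axis) in the 9 high Arc, 10 middle and 9 low Arc libraries, with the median as a line. Npas4, Per1, Ppp1r15a and Fosb are apart between high and low, while Fos, Egr1, Dusp1 and Homer1 overlap.

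These differences lay along the GC content of the transcripts. Genes of up to 45% GC had a median difference of -0.84, those of 50% to 55% had 0.72 and those of 55% to 60% had 1.61. Homer1 (36.9% GC) and Bdnf (40.9%) were on the side of the first group, and Per1 (59.4%), Nptx2 (58.3%) and Npas4 (55.6%) on that of the last. Exons were counted in the longest transcript of each gene. Among genes of 55% to 60% GC, those with a single exon had a median of 0.74 (95 genes) and those with over 10 exons 1.72 (947 genes). The GC trend of each library was therefore removed with a spline over GC content, and the differences were read again.

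With the GC trend removed, 22 of the 61 activity-dependent genes were above 0 and 39 below, against 35 and 26 with it left in. Among the delayed effectors 11 of 18 were above 0, against 9 with it left in. Of all 19119 genes with a GC value, 49.9% were above 0 after the removal. Ppp1r15a had 2.17, Npas4 1.74, Per1 1.17, Plk3 1.12, Plat 1.12 and Nrn1 1.11, while Fosb had 0.48 ± 0.45 and Nr4a1 -0.04 ± 0.64. Ppp1r15a, Per1 and Plat were the 3 of 61 members that were higher with ranges apart, against 9.63% of all genes, and 7 of 61 were lower, against 7.27%. The median of the rapid transcription factors became -0.58, that of the signalling regulators -0.22 and that of the delayed effectors 0.08. Fos then had -1.03 ± 0.57, Egr1 -1.37 ± 0.65, Dusp1 -0.69 ± 0.58, Homer1 0.27 ± 0.35 and Bdnf 0.21 ± 0.47. The values of Homer1 and Bdnf were smaller than their spread. The largest negative values were those of Cebpb (-4.19), Pcdh8 (-2.74), Egr4 (-2.14), Klf2 (-2.06), Pim1 (-1.68) and Ier5 (-1.61). Of these 6 genes, Cebpb, Pcdh8 and Ier5 have a single exon in their longest annotated transcript. A correction by GC content alone does not separate that feature.

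**Figure D3:**
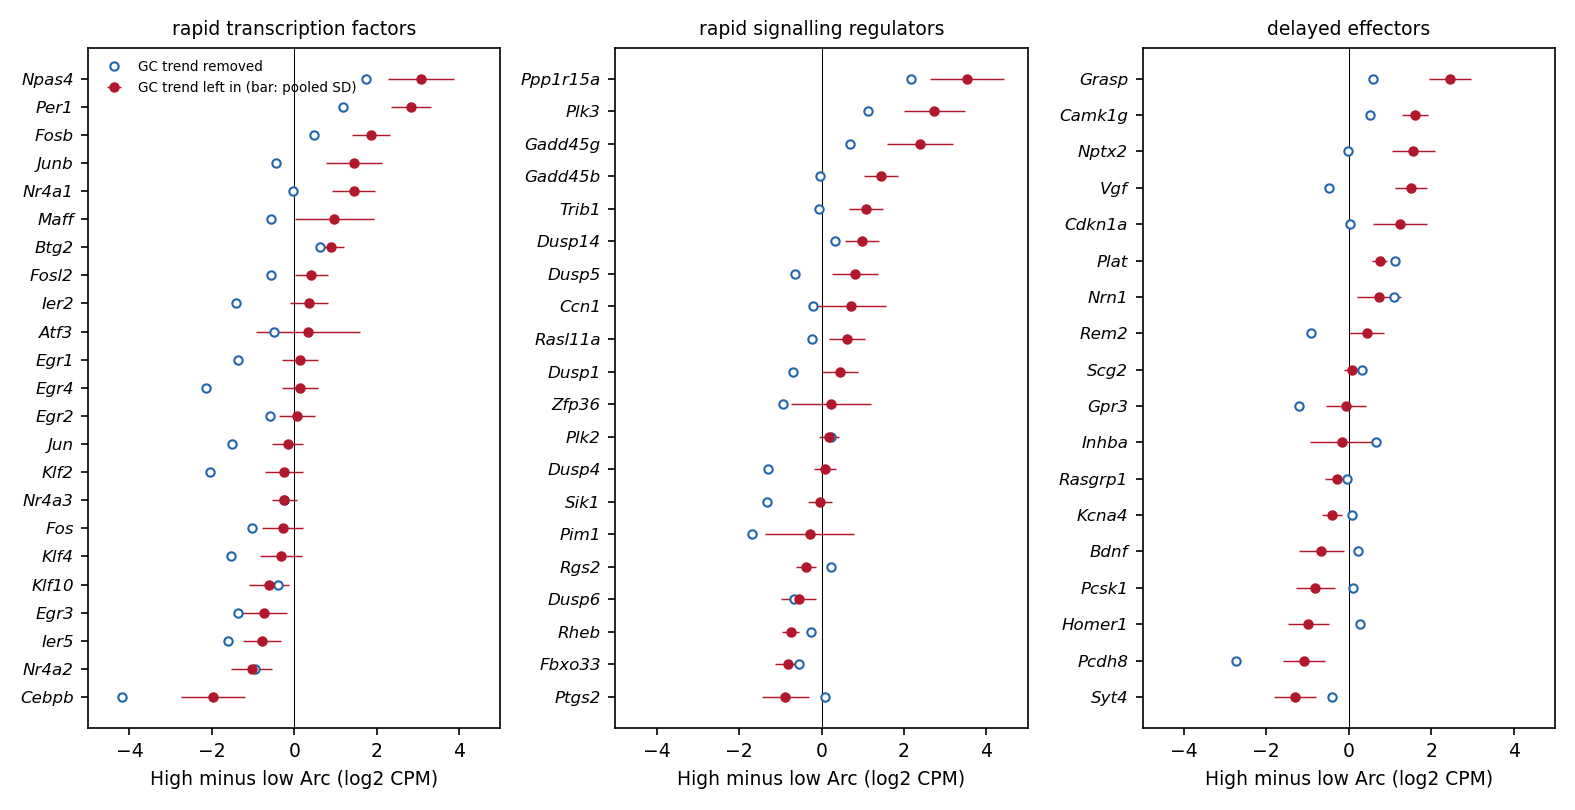
Difference in mean log2 CPM between 9 high and 9 low Arc libraries for 61 activity-dependent genes in 3 lists, with the GC trend left in (filled, bar: pooled SD) and removed (open). Removing it moved most genes of high GC content to the left, and Ppp1r15a, Npas4, Per1, Plk3, Plat and Nrn1 then had differences above 1.

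Genes around the activity response were read in the same way, against the same 22.2% of all genes higher and 15% lower with ranges apart and 51.3% above 0. Of 15 upstream factors, which relay or carry out the first transcription, 3 were higher with ranges apart, the coactivators Crtc1 (2.15 ± 0.50) and Crtc2 (1.26 ± 0.35) and the factor Mef2d (1.75 ± 0.30). Creb1 (-1.15 ± 0.24), Mef2a (-1.15 ± 0.26) and the acetyltransferase gene Ep300 (-0.57 ± 0.13) were lower with ranges apart. With the GC trend removed, Mrtfa (-1.49), Crtc3 (-1.17), Ep300 (-1.14) and Crebbp (-1.08) had the largest differences, all negative. Genes for proteins that bind Arc protein or share its complexes had 12 of 15 above 0 and 9 higher with ranges apart, and a median of 1.57. Without the GC trend 3 of 15 were higher with ranges apart, against 9.63% of all genes, and the median was 0.33. Dlg4, the scaffold PSD-95, had 2.15 ± 0.40 and 2.39 without the trend, the clathrin adaptor Ap2m1 2.14 ± 0.44 and 1.68, the endophilin gene Sh3gl1 2.57 ± 0.66 and 1.83, and Dlgap1 -0.61 ± 0.31 and -1.13. Glucocorticoid-responsive genes had a median of 0.31, with 1 of 15 higher with ranges apart, Zbtb16 (0.95 ± 0.20), and their median was -0.13 without the trend. Their largest values without the trend were those of Mt2 (-2.59), Plin4 (1.23), Sult1a1 (0.78) and Nfkbia (-0.65).

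Markers of cell types were read between the sets too. With ranges apart, 2 of 9 microglia, 3 of 15 excitatory neuron, 2 of 12 interneuron and 0 of 10 lymphocyte markers were higher. None of these 4 lists had a member lower with ranges apart, and of all genes 22.2% were higher and 15% lower. Median differences were 0.95 for vascular, 0.55 for oligodendrocyte, 0.11 for oligodendrocyte precursor, 0.05 for striatal neuron and -0.34 for astrocyte markers. In bulk tissue, fewer cells of a type and less RNA per cell cannot be told apart. Of the 9 tested microglia markers 8 were above 0, with a median difference of 2.10 and of 1.14 without the GC trend, and their summed level was 285 to 844 CPM in the high and 188 to 413 CPM in the low set. Excitatory neuron markers had 6 of 15 above 0 and 9 below, a median of -0.13 and summed levels of 947 to 1439 and 1096 to 1693 CPM. Against most of that list, Slc17a7, the vesicular glutamate transporter of cortical neurons, was present in every library, at 118 to 451 CPM in the high and 13.2 to 55.8 CPM in the low set. Interneuron markers summed to 507 to 807 CPM in the high and 661 to 1294 CPM in the low set, although 8 of 12 were above 0 with a median difference of 0.52. Adarb2 (-1.01 ± 0.34), Gad2 and Gad1, the most abundant of them, were among the 4 below 0. Lymphocyte markers summed to 13.3 to 303 and 21.6 to 320.0 CPM, with 8 of 10 above 0 and a median difference of 0.60. With the GC trend removed, interneuron markers had 5 of 12 above 0 and a median of -0.31. Excitatory neuron markers then had 4 of 15 and -0.29, and lymphocyte markers 7 of 10 and 0.48. Of all genes 51.3% were above 0 with the trend and 49.9% without it. Bone and meninges markers reached 2671 CPM in knockdown stressed replicate 2 of the high set. Without that library, LacZ stressed replicate 4 and knockdown stressed replicate 7, the medians of the 3 activity-dependent lists were 0.02, 0.50 and -0.05, and that of the glucocorticoid-responsive genes was 0.56. The part of these cells in the differences was not tested.

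A second reading asked which genes vary with Arc among libraries of like GC slope. The GC slope was regressed out of the log2 CPM of each gene over the 28 libraries, and the residuals were correlated with those of Arc. This step was chosen after the values above were seen, and it has no test, since Arc itself ranked the libraries. Arc residuals no longer followed the sets: of the 9 libraries with the highest residuals 4 were of the high set, and of the 9 lowest 4 were of the low set. Without the GC slope, 23 of the 61 activity-dependent genes had r of at least 0.5 with Arc, against 4.79% of all genes, and 0 had r of -0.5 or less, against 1.46%. The median r was 0.38 over the 61 and 0.01 over all genes, whose 5th to 95th percentile ran from -0.40 to 0.50. Leaving out each library in turn gave 21 to 25 of 61, and entering group means beside the slope gave 23.

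The order of the members differed from that of the set comparison. Dusp1 had r = 0.79 and rho = 0.78, Homer1 r = 0.77 and rho = 0.79, and the phosphatase gene Dusp6 r = 0.73 and rho = 0.67. Egr2 (r = 0.71), Camk1g (0.70), Egr1 (0.70), the ubiquitin ligase gene Fbxo33 (0.69), Nr4a1 (0.68), the prohormone convertase Pcsk1 (0.66), Bdnf (0.65) and Fosb (0.65) came next. These 11 genes ranked among the top 100 of 14980 genes of at least 1 CPM on average. Fos had r = 0.57 and Npas4 r = 0.53, which were 0.49 and 0.47 without LacZ stressed replicate 1, the library with the highest Arc. Nptx2 had r = 0.47, and Per1 0.54.

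Some members did not track Arc on this scale. Junb had r = 0.12, Ppp1r15a 0.12, Plk3 0.14 and Gadd45g 0.14, although the last 3 were among the genes farthest apart between the sets. Cebpb (-0.15), Klf2 (0.03), Sik1 (0.09), Dusp4 (-0.13), Pcdh8 (-0.10), Pim1 (-0.29) and Nr4a2 (-0.30) also lay low. By list, 10 of 23 transcription factors, 6 of 20 signalling regulators and 7 of 18 delayed effectors reached 0.5. The medians were 0.40, 0.27 and 0.46. Of the related lists, 0 of 15 upstream factors (median -0.26), 1 of 15 protein partners, Ap2m1 (median 0.16), and 1 of 15 glucocorticoid-responsive genes, Klf9 (median 0.06), did so.

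**Figure D4:**
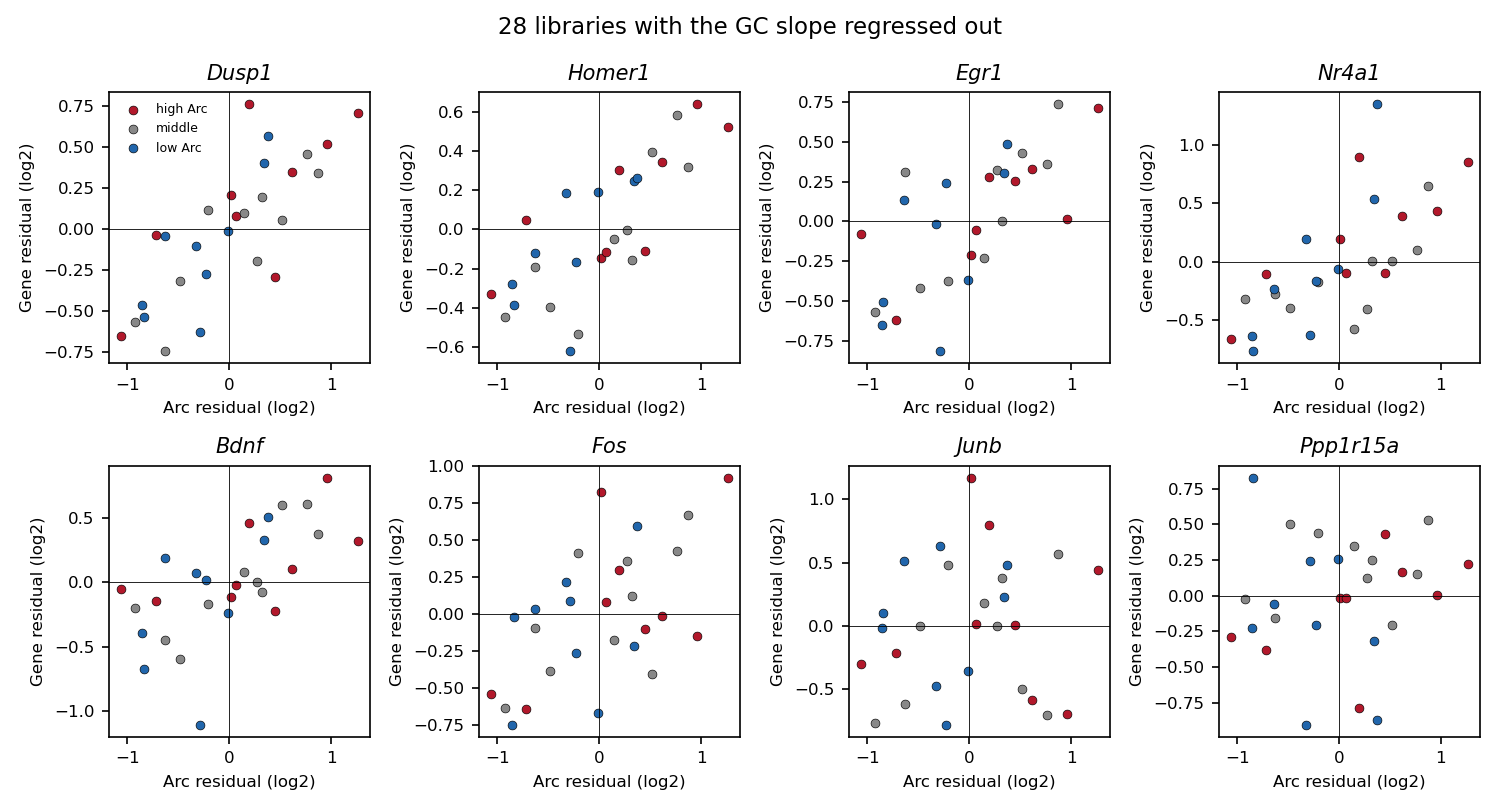
Residual log2 CPM of 8 genes against that of Arc in 28 libraries after regression on the GC slope, coloured by Arc set. Over the 28 libraries together, Dusp1 (r = 0.79), Homer1 (0.77) and Egr1 (0.70) follow Arc, and Junb and Ppp1r15a (0.12 each) do not. These r values were not computed within each colour.

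Activity-dependent genes were also compared with each other in these residuals, whether or not they tracked Arc. Among the 10 genes Fos, Fosb, Junb, Egr1, Npas4, Nr4a1, Dusp1, Bdnf, Homer1 and Nptx2, r between pairs ran from -0.18 to 0.85 with a median of 0.56 over 45 pairs. Bdnf and Homer1 had r = 0.85, Nr4a1 and Dusp1 0.84, and Bdnf and Egr3 0.92. Junb had r = 0.57 with Fos and 0.60 with Cebpb, but -0.18 with Homer1. These values share libraries and depth and are given as a description.

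Cell type markers were read in the same residuals. Interneuron markers had a median r of 0.35, above the 0.27 of the rapid signalling regulators, with the peptide genes Sst (0.53), Npy (0.55) and Cck (0.55) at 0.5 or more, and excitatory neuron markers 0.21, with Neurod6 (0.55) and Nrgn (0.50). The median was -0.12 for microglia, -0.09 for oligodendrocyte, -0.19 for vascular and -0.34 for lymphocyte markers. Entering the mitochondrial share beside the GC slope left 16 of 61 activity-dependent genes at r of at least 0.5, against 1.51% of all genes.

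**Figure D5:**
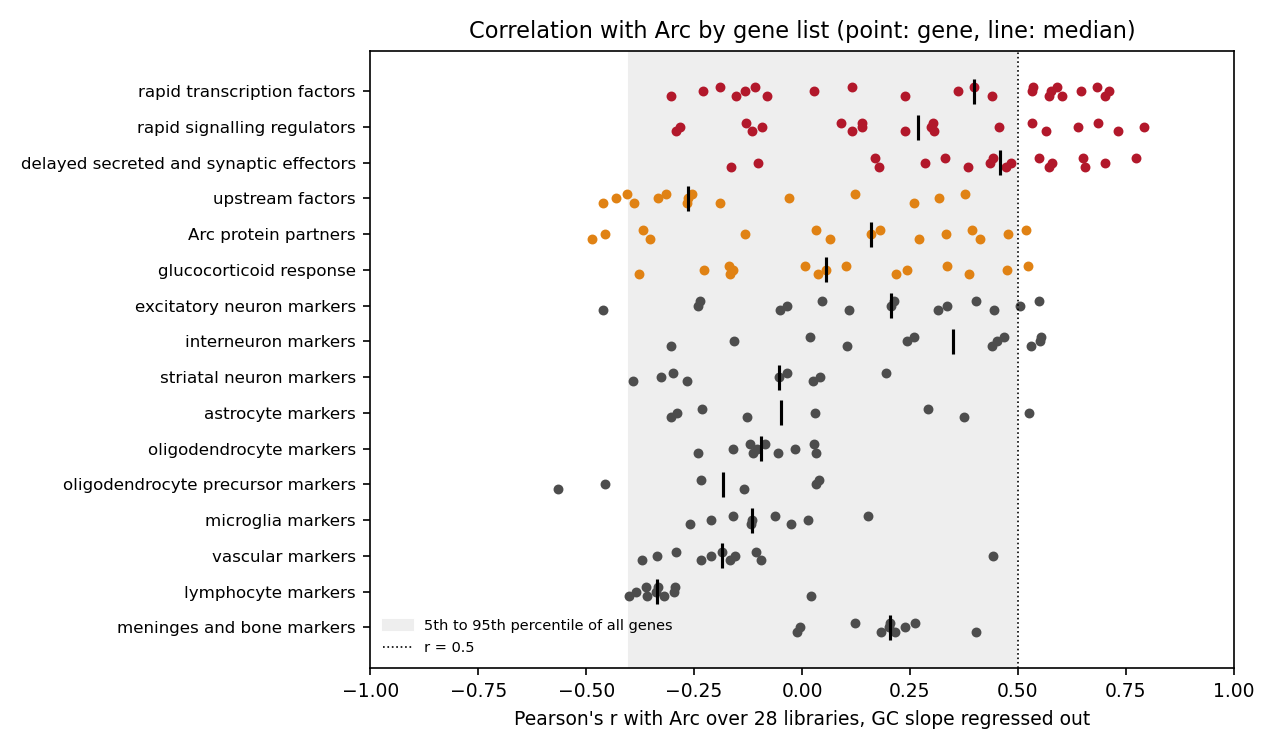
Pearson's r of each gene with Arc over 28 libraries with the GC slope regressed out, by gene list, with the list median as a line, r = 0.5 dotted and the 5th to 95th percentile of all genes shaded. The 3 activity-dependent lists have medians of 0.40, 0.27 and 0.46, and upstream factors -0.26.

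Beyond the lists, the gene with the highest r among the 14980 was 1700016P03Rik (chr11:75172560-75177633, plus strand; r = 0.84, rho = 0.82), a non-coding gene that was named after its values were seen. In the annotation its span holds the genes of 2 microRNAs, Mir212 (chr11:75173388-75173478) and Mir132 (chr11:75173682-75173747), which are known to be induced by CREB in neurons. Their mature forms, taken from RefSeq, share the seed AACAGUC, shown in capitals, and so share predicted targets.
mmu-miR-132-3p: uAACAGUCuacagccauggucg
mmu-miR-212-3p: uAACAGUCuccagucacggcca
The host gene had 3.70 to 15.0 CPM (median 8.43) in the high and 5.78 to 13.4 CPM (median 8.43) in the low set, so the sets alone do not show its relation to Arc. Of its span, 36.4% overlaps other genes, and mature microRNAs were not measured. Next to it and Dusp1 stood the chaperone gene Hsph1 (0.78), Gdap2 (0.77), the kinase subunit gene Pik3ca (0.76), Arl5b (0.74) and the chaperone gene Dnajb5 (0.73).

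By the other scale, GC-corrected log2 CPM over all 28 libraries, the genes most like Arc included Cop1 (rho = 0.84), Mrpl35 (0.83), Borcs7 (0.82), Rgs4 (0.81), Zfp106 (0.81), Hapln4 (0.80), Ipo5 (0.80), Ykt6 (0.80) and Pik3ca (0.80). Rgs4 encodes a regulator of G protein signalling and Hapln4 a link protein of perineuronal nets. The 5 least like it were Ccdc15 (-0.81), Prkag1 (-0.80), Zfp438 (-0.79), Ccdc88c (-0.79) and Ofd1 (-0.79). No activity-dependent gene of the 3 lists was among these genes. The 2 scales also differed for genes with residual r of at least 0.5. Here Dusp1 had rho = -0.02, Dusp6 -0.04, Egr2 0.06, Egr3 -0.25 and Ier5 -0.33, while Homer1 had 0.67 and Per1 0.75.

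The 10 middle libraries, which neither set contains, were used for a test. The same Arc ranking placed them in the middle, so the p values below are not independent of that ranking. Arc had 4.94 to 12.2 CPM in them. For the 10 genes given above by pair, GC-corrected log2 CPM was correlated with that of Arc by a two-sided permutation test with 100000 resamples, and p was adjusted by Benjamini-Hochberg over the 10 genes. Egr1 (r = 0.86, permutation p = 0.00101, adjusted p = 0.00505), Homer1 (r = 0.89, permutation p = 9.50e-04, adjusted p = 0.00505) and Bdnf (r = 0.83, permutation p = 0.00305, adjusted p = 0.0102) passed. Their rho values were 0.95, 0.88 and 0.88 (permutation p = 9.00e-05, 0.00172 and 0.00153, adjusted p = 9.00e-04, 0.00573 and 0.00573), and r was 0.84, 0.84 and 0.76 in the 8 libraries left after removing the 2 of most extreme Arc, where Egr1 and Homer1 passed and Bdnf did not (adjusted permutation p = 0.0658). Fosb (r = 0.70, permutation p = 0.0172, adjusted p = 0.0430) and Nr4a1 (r = 0.69, permutation p = 0.0235, adjusted p = 0.0469) passed by r but not by rho (0.71 and 0.59, permutation p = 0.0261 and 0.0808, adjusted p = 0.0523 and 0.101), and r was 0.44 and 0.43 without those 2 libraries. On this scale their relation rests on those 2 libraries.

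The other 5 genes did not pass by r in the middle libraries. Nptx2 had r = 0.62 (permutation p = 0.0559, adjusted p = 0.0931) and passed by rho (0.75, permutation p = 0.0169, adjusted p = 0.0424), with r = 0.57 without the 2 farthest libraries. Fos had r = 0.58 (adjusted permutation p = 0.112), Dusp1 0.56 (adjusted permutation p = 0.119), Npas4 0.46 (adjusted permutation p = 0.201) and Junb 0.15 (adjusted permutation p = 0.671). Their rho values were 0.60, 0.64, 0.43 and 0.30 (adjusted permutation p = 0.101, 0.0883, 0.243 and 0.404). With the GC trend left in, Egr1 had 0.60, Homer1 -0.09 and Bdnf -0.09, and Fosb alone passed (r = 0.85, adjusted permutation p = 0.0470). In these 10 libraries GC-corrected Arc had r = -0.42 with the GC slope (permutation p = 0.231). With the slope regressed out within the 10 libraries, Egr1 (0.94), Homer1 (0.86), Fosb (0.80) and Bdnf (0.79) passed by r.

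The study's labels were then tested for the same genes. Over all 28 libraries, the quasi-likelihood test of edgeR, with p adjusted by Benjamini-Hochberg, called 0 of 61 activity-dependent genes for stress averaged over virus, 0 for the knockdown label averaged over stress and 0 for their interaction, against 0% of 19171 genes in each. At an unadjusted p under 0.05 there were 424, 291 and 68 genes of all, and DESeq2, which also called 0, gave 606, 373 and 73. With the GC slope of each library as a covariate edgeR also called 0, with 1961, 1448 and 172 genes at an unadjusted p under 0.05 (lowest adjusted p by edgeR 0.402, 0.634 and 1), of which 6, 3 and 0 were among the 61. Without the 3 libraries left out above it called 0, with 1118, 236 and 58. In the fit without covariate those among the 61 were Egr4 (-0.41 ± 0.16 SE) and Nr4a3 (-0.31 ± 0.13) for stress and the kinase gene Plk2 (-0.24 ± 0.09) for the knockdown label, each with an adjusted p of 1 by edgeR. For stress, Fos had a log2 fold change of 0.06 ± 0.20, Egr1 -0.22 ± 0.16, Dusp1 0.02 ± 0.17 and Homer1 -0.24 ± 0.25. For the knockdown label they had -0.19 ± 0.20, -0.07 ± 0.16, -0.25 ± 0.17 and -0.17 ± 0.25. Of the 61 genes, 46 were below 0 for the knockdown label, with a median of -0.10, and 10709 of all 19170 genes were below 0, with a median of -0.02.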

How the data were processed

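Each deposited file gave raw fragment counts by gene. The authors ran featureCounts 1.6.2 on gene features of Ensembl release 90 (GRCm38), without a strand option and on alignments whose name marks duplicates as removed, per the file headers. Counts therefore include introns and antisense partners, and fragments in overlapping genes count for neither. HISAT2, Subread and DESeq2 are named in the submitters' processing notes. The files held 52636 genes, and filterByExpr kept 19171. Totals were 30.6 to 44.3 M. No 2 libraries of a group were alike within sampling noise (lowest chi-square 27.1 per gene over 84 pairs).

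Library sizes were adjusted by TMM, and edgeR 4.0.16 (R 4.3.3) was fitted with 1 coefficient per group. DESeq2 1.42.0 was an alternative. Log2 CPM used a prior count of 2. GC content and exon numbers came from the longest GENCODE M21 transcript, and GC trends were natural splines with 5 knots. Correlations used numpy 2.4.6 and scipy 1.17.1. The edgeR fit and the residual correlation were tested on simulated data.

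The members, gene lists, named genes and tests were chosen with earlier results of these data known. The genes named were 10 fixed ones, up to 4 members per list with the largest GC-corrected difference, and the 10 most and 5 least like Arc by rho. Of these, 1 gene is not reported here. Genes named beyond that were chosen after their values were seen: Per1, Plk3, Btg2, Egr2, Egr3, Dusp6, 1700016P03Rik and those given as ranges apart, at r of at least 0.5 or low in r.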

Additional observations from a re-analysis of the deposited data

Results flagged for a closer look

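Within the sets of 9 libraries, 6 of 120 measures had 1 library far from the others, and chance gives about 1 in 20. The value given is the gap to the nearest library as a share of the whole range. In LacZ stressed replicate 4 of the high set, Bdnf was highest at 6.07 log2 CPM with the next at 5.404 (0.562), Rgs4 highest at 9.09 with the next at 8.19 (0.495) and Crtc3 lowest at 4.04 with the next at 4.44 (0.511). In knockdown unstressed replicate 7 of the low set, Sh3gl1 was lowest at -0.44 with the next at 0.99 (0.571), Hapln4 lowest at -0.25 with the next at 1.17 (0.596) and Ykt6 lowest at 4.15 with the next at 4.60 (0.506). That library also had the lowest GC slope (-1.24), the highest mitochondrial share (14.2%) and the lowest total (30.6 M). The part of these values in these genes was not tested.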

How the results depend on the processing

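Relative to 4247 genes higher and 2866 lower with ranges apart, counts were 1841 and 1390 with the GC trend removed, 1785 and 1400 with GC and length trends removed, 41 and 5 ranked by GC-corrected Arc, 171 and 114 for 14 against 14 libraries, and 4430 lower for 5 against 5. Without a TMM factor 1134 were lower, and the median of all genes moved to 0.49, with list medians of 0.61, 0.81 and 0.49 in the order of the report. Counts were 0 and 0 with the GC slope regressed out, and 32 and 16 with GC removed and ranks by GC-corrected Arc; both alternatives were chosen after seeing the data, as were all regressions on the slope. List medians were -0.58 and -0.22 for transcription factors and signalling regulators with GC removed and -0.75 and -0.33 with length too. Delayed effectors had 0.21 when ranked by GC-corrected Arc. With GC removed and that ranking the 3 lists had -0.42, 0.0012 and 0.34, and with the slope regressed out signalling regulators had 0.064. Signs turned with GC removed for Junb (-0.44), Nr4a1 (-0.036) and Nptx2 (-0.019), with GC and length removed (-0.54, -0.15 and -0.091), for Junb with GC removed and re-ranked (-0.060), and with the slope regressed out for Sh3gl1 (-0.044), Plin4 (-0.20) and Plk3 (-0.0067). The cause was not tested.

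In the 10 middle libraries 5 genes passed, 1 with GC left in, where r was -0.17 for Fos, -0.33 for Dusp1, -0.089 for Bdnf and -0.090 for Homer1. Without the 2 farthest libraries 2 passed, with 8 libraries in the test, and 8 passed with the slope of all 28 regressed out, where Arc residuals had r = -0.77 with the slope (permutation p = 0.00820). Junb had -0.12 with the slope regressed out within the 10. Of the alternatives for the residual correlation, a squared slope gave 24 of 61 genes at r of at least 0.5 (6.88% of all), Spearman's rho 22, no TMM factor 21 and the loss of 3 libraries 22. The share of all genes ran from 2.66% without LacZ stressed replicate 4 to 7.12% without LacZ unstressed replicate 2. No label comparison called a gene under any alternative run. No paired analysis was possible because replicate numbers give only the accession order. Low Arc libraries rest on 40 to 140 Arc counts, so depth limits the order within that set.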
